A study of Mus musculus with 6 samples.

Results

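The change of the interleukin-1 (IL-1) response from 2 h to 4 h was measured in cultured dermal fibroblasts of C57BL/6 mice, the matrix-producing cells of the skin. For each gene, the log2 ratio of IL-1-treated over untreated RNA at 2 h was subtracted from that at 4 h within a dye orientation, and both orientations were averaged. A positive difference means a higher ratio at 4 h. The comparison used 4 of the 6 arrays of the series, and 21278 genes were measured, of which 16681 carried a RefSeq symbol. All treated cells received IL-1 at 20 ng/ml for 1, 2 or 4 h, and the untreated cells are the 0 h sample of the same strain. Each 2-colour array carried treated RNA of 1 time against untreated RNA. The treated RNA was in Cy5 on the replicate 1 arrays and in Cy3 on the replicate 2 arrays. Pairs of values below are given in that order. Because the arrays of a time differ by a dye swap, each time counts as 1 sample. No p-value can be given for a difference between 2 h and 4 h, and "higher" and "lower" describe these samples. The error given after ± is the distance of either orientation from their mean, a technical error. Over all genes its median was 0.0389 and its 95th percentile 0.139.

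IL-1 binds its receptor and acts through the adaptor MyD88 to activate the transcription factor NF-kB and the MAP kinases. In fibroblasts this turns on chemokines, cytokines, adhesion molecules and matrix-degrading enzymes. It also turns on inhibitors of the pathway itself, such as the IkB proteins that hold NF-kB in the cytoplasm and the ubiquitin-editing enzyme A20. Genes of this response are commonly divided into early genes, whose mRNAs are short-lived, and later genes whose mRNAs build up more slowly.

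The promoters below belong to the genes with the largest differences in each direction that have a window in the RefSeq table (GRCm38.p6). They are shown because the motifs in them were counted over all promoters. Each runs 5′ to 3′ on the gene's strand over 300 bases, of which the first 250 precede the gene start. Capitals mark matches to the motifs searched, and a match is a description of letters, not evidence of a bound site.
Nfkbie, chr17:45555450-45555749, plus strand: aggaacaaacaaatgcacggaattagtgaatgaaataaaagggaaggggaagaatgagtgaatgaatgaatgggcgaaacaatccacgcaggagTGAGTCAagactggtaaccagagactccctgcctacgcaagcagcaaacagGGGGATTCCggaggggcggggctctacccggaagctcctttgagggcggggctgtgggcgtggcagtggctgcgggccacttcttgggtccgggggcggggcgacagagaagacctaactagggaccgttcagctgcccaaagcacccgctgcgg
Cish, chr9:107296409-107296708, plus strand: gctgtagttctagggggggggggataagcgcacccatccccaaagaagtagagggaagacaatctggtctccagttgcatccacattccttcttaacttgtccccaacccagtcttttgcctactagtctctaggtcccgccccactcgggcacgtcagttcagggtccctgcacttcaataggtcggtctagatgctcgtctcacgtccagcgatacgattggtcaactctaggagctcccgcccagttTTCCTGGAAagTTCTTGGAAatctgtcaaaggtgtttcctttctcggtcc
Cxcl10, chr5:92348840-92349139, minus strand: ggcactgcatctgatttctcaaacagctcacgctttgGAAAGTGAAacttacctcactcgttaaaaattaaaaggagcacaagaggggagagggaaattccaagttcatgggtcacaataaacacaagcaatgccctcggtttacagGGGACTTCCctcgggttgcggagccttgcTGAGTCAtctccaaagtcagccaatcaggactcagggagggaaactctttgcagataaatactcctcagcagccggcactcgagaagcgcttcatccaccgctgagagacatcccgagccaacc
Ccl20, chr1:83116516-83116815, plus strand: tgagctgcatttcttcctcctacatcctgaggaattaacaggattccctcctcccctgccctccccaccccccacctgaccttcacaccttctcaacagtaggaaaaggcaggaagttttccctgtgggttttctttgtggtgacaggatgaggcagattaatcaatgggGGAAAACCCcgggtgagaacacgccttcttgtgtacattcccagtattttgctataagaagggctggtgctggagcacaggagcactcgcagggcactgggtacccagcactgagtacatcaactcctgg
Id4, chr13:48260866-48261165, plus strand: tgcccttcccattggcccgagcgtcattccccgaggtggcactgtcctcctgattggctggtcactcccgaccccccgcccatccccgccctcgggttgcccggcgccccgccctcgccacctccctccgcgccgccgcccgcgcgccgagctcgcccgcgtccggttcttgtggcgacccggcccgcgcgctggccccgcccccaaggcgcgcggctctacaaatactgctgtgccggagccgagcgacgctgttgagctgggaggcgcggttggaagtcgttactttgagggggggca
Vegfc, chr8:54077282-54077581, plus strand: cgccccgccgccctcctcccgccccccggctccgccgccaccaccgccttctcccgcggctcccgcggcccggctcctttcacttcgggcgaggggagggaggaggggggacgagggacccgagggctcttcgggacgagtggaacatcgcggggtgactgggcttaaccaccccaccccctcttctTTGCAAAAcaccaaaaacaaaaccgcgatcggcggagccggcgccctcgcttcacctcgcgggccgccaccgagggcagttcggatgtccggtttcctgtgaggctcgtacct
The searched motifs, on both strands, were NF-kB (GGGNNTTCC), AP-1 (TGANTCA), ISRE (GAAANNGAA), GAS (TTCNNNGAA), C/EBP (TTGCNNAA), CRE (TGACGTCA) and E-box (CACGTG). The NF-kB pattern has 9 letters and misses longer variants. One such variant, gggaaattcc in the Cxcl10 window, was therefore neither marked nor searched for. Positions are counted from the gene start, which is 0. Nfkbie held an AP-1 match starting at -156 and an NF-kB match at -105. Cxcl10 held an ISRE match at -213, an NF-kB match at -103 and an AP-1 match at -74. The NF-kB match of Ccl20, at -80, lies on the opposite strand. Cish held GAS matches at 0 and 11, Vegfc a C/EBP match at -63, and the Id4 window held no match to any motif searched. Rnd1, the other gene at the head of the lower side, has no window in the table used.

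By the size rules below, more genes had a lower than a higher ratio at 4 h, while over all genes 6162 differences were below 0 and 6010 above 0 in both orientations. By a size rule of at least 0.5 in each orientation (1.41-fold), 25 genes were lower, 0.117% of those measured, and 2 were higher, 0.0094%. This split depends on the processing: the scanner's processed signals, and the authors' deposited table, gave 138 lower and 104 higher genes. At least 2-fold in each orientation, 2 were lower (0.0094%) and 0 higher (0% of the 21278). A rule of 0.3 (1.23-fold), chosen after the data had been seen, gave 75 lower genes (0.352%) and 37 higher (0.174%). The counts within gene lists below are to be read beside these shares, and a count of 0 in a short list is near them. Nearest to the rule of 0.5 without passing on the lower side were Irf5 (-0.53 and -0.48), Glis2 (-0.48 and -0.49), Bahcc1 (-0.48 and -0.54) and Nfatc1 (-0.55 and -0.46). Cxcl1 (-0.38 and -0.91) and Icam1 (-0.30 and -0.91) passed in 1 orientation only. Nearest on the higher side were Serpinb2 (0.47 and 0.61), Ttc39c (0.47 and 0.49), Mmp3 (0.46 and 0.55) and H2-T10 (0.56 and 0.45), and Serpina3g (0.87 and 0.44) passed in 1 orientation. All 25 lower genes were above the untreated level at 2 h, by 1.57-fold to 12.8-fold, and remained above it at 4 h in both orientations, by 1.09-fold to 6.63-fold. Of the 25, 16 were at least 2-fold higher than untreated at 2 h and 6 at 4 h. A rule on the difference favours genes with a high 2 h ratio, so their position at 2 h is part of the choice.

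**Figure D1:**
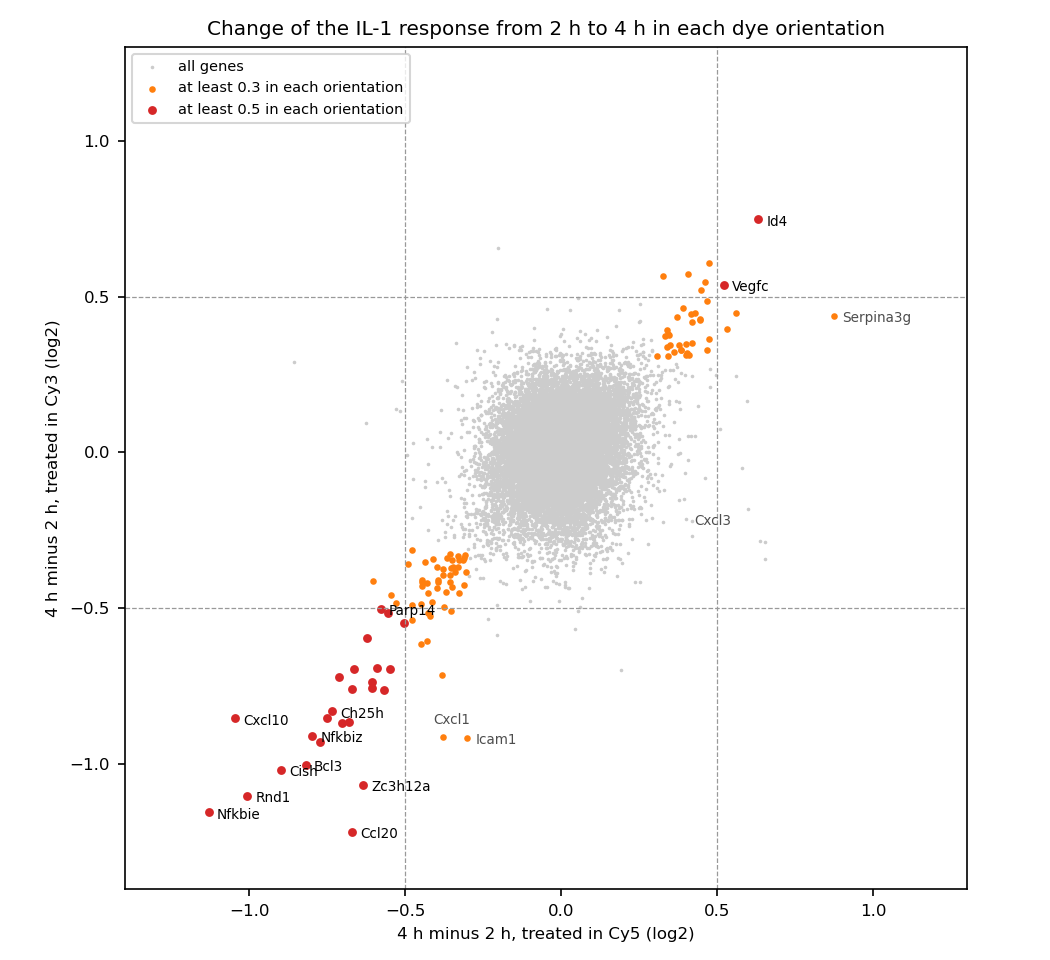
Difference of the log2 ratio between 4 h and 2 h for each gene, with the treated RNA in Cy5 (x axis) and in Cy3 (y axis); dashed lines mark 0.5. The 25 lower genes lie in the lower left corner and Id4 and Vegfc in the upper right, while Cxcl1 and Icam1 pass in 1 orientation only.

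The genes of the IkB family and their nuclear relatives were the group with the largest shift. Of 6 measured members, 4 were lower past 0.5 and 0 higher, against 0.117% and 0.0094% over all genes. The median difference was -0.819, against -0.001 over all genes. Nfkbie, which encodes IkB-epsilon, had log2 ratios of 1.72 and 1.73 at 2 h and 0.59 and 0.57 at 4 h. It went from 3.31-fold to 1.5-fold above untreated, a difference of -1.14 ± 0.01, the largest of any gene. Nfkbia, which encodes IkB-alpha, stood at 2.48 and 2.82 at 2 h and at 1.78 and 1.95 at 4 h, so it was still 3.65-fold above untreated. Bcl3, a nuclear IkB protein that binds p50 and p52, went from 2.02 and 2.46 to 1.20 and 1.46. Nfkbiz, the nuclear cofactor IkB-zeta, went from 2.03 on both arrays to 1.23 and 1.12. In each of these genes the 4 h arrays lay below both 2 h arrays, which the choice by the difference in part sets. The other 2 members did not pass: Nfkbib (IkB-beta) had a difference of 0.03 and Nfkbid of -0.04. The probe of Nfkbid was dim, with a mean log2 signal of 6.04 against a median of 7.27 over all genes, so a change could be missed.

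Among the NF-kB subunits, only Relb passed. Relb, the partner of p52 in the alternative pathway, went from 1.95 and 2.18 at 2 h to 1.36 and 1.49 at 4 h, a difference of -0.64 ± 0.05. On their brightest probes, the precursors of the other subunits had similar ratios at both times: Nfkb1 was at 1.16 and 1.04, and Nfkb2 at 1.10 and 1.11, at 2 h and 4 h. Dimmer probes of Nfkb1 had differences of -0.163 and -0.298, of -0.086 and -0.381, and of -0.075 and -0.022. Rela, the main activating subunit, was at 0.65 and 0.40. Of the 9 measured subunits and kinases 1 was lower past 0.5, with a median of -0.003, and the kinase genes Chuk, Ikbkb and Ikbke had differences of 0.05, 0.03 and 0.00 to 2 decimals.

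The enzymes that restrain the pathway after the receptor were lower too, but only some of them. Tnfaip3, which encodes A20, went from 1.03 and 1.10 at 2 h to 0.36 and 0.35 at 4 h, a difference of -0.71 ± 0.04. Zc3h12a, the RNase regnase-1 that degrades cytokine mRNAs, went from 1.89 and 1.98 to 1.25 and 0.92. Its orientations lay further apart, at -0.64 and -1.07, and its untreated RNA was well above background on 3 of the 4 arrays. Tnfaip2, which is on the same list but is not itself a ubiquitin regulator, was at -0.77 ± 0.09. Birc3 (cIAP2), a ubiquitin ligase, was at -0.39 ± 0.04, past 0.3 only. The A20-binding protein Tnip1 was at 0.01 in both orientations, and Traf1 at -0.15 and -0.37. In all, 2 of 11 measured members of the list of A20 and ubiquitin regulators were lower past 0.5, Tnfaip3 and Tnfaip2. Of 9 mRNA decay regulators 1 was lower past 0.5, and 0 of either list was higher. The decay factor Zfp36 (tristetraprolin) had differences of 0.01 and 0.05.

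Chemokines divided into genes that were lower at 4 h and genes that were not. Cxcl10, which attracts T cells through CXCR3, was at 1.49 and 1.21 at 2 h and at 0.45 and 0.36 at 4 h. This is a change from 2.55-fold to 1.32-fold, in a gene chosen by this difference. The untreated RNA of Cxcl10 was well above background on 3 of the 4 arrays. Ccl20, the ligand of CCR6, went from 3.31 and 4.04 to 2.64 and 2.82. Its difference of -0.94 had an error of 0.27. Both 4 h values were below both 2 h values, which the choice by the difference in part sets. Cxcl1, a neutrophil attractant, was 44.8-fold above untreated at 2 h and 28.7-fold at 4 h. Its differences of -0.38 and -0.91 place it past 0.3 only. Cxcl2, its close relative, had a difference of -0.55 ± 0.17, and Cx3cl1 (fractalkine) of -0.39 ± 0.04.

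Against these, the monocyte attractants Ccl7 and Ccl2 stood level. Ccl7 was at 2.25 and 2.40 at 2 h and at 2.30 and 2.38 at 4 h, 5.01-fold and 5.08-fold above untreated. Ccl2 was at 2.45 and 2.63, then 2.57 and 2.89, but its probe was saturated in the treated channel on 2 of the 4 arrays, which limits what the ratio can show. The neutrophil attractant Cxcl5 went the other way, from 4.43 and 4.25 to 4.93 and 4.50, with differences of 0.50 and 0.25. Cxcl3 could not be placed, since its orientations disagreed in sign (0.40 and -0.21). Ccl11 (eotaxin) was higher at 4 h, by 0.42 and 0.35, and Cxcl16 by 0.38 and 0.16. Over the list of CXC chemokines 1 of 10 was lower past 0.5 with a median of 0.004, and over the CC and CX3C chemokines 1 of 14 with a median of -0.027. Cxcl1, Cxcl2 and Cxcl3 are similar in sequence, and cross-hybridisation between their probes was not tested.

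Among the cytokines none passed 0.5. Il6 was at 2.94 and 2.99 at 2 h and at 2.81 and 2.65 at 4 h, so it was 7.80-fold and then 6.65-fold above untreated. Csf2 (GM-CSF) had differences of -0.45 and -0.61, but its untreated RNA was well above background on only 1 of the 4 arrays, so its ratios are against a reference near background. Csf1, the macrophage growth factor, went from 0.81 to 0.48. Of 22 measured cytokines and colony-stimulating factors 0 passed 0.5, 2 were lower past 0.3 (Csf2 and Csf1), and the median was -0.018.

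Of the adhesion molecules, 2 were lower at 4 h past 0.3, both at least 2-fold above untreated at 2 h, and the list median was -0.031. Icam1, a ligand of leukocyte integrins, was at 2.33 and 2.55 at 2 h and at 2.03 and 1.64 at 4 h. Its difference was -0.61 ± 0.31, so the orientations disagree on its size. Vcam1 went from 1.52 and 1.43 to 1.07 and 1.01, a difference of -0.43 ± 0.02. None of 20 measured adhesion genes passed 0.5. The death receptor Fas was at -0.34 ± 0.01, while Casp4 (0.41 and -0.02) and the receptor Cd40 (0.37 and 0.24) did not pass. Ripk2, a kinase of the NOD receptors, was at 0.76 at 1 h, 1.15 at 2 h and 0.47 at 4 h. Icosl, a co-stimulatory ligand, was lower by -0.50 and -0.55, its untreated RNA being well above background on 2 of the 4 arrays.

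Transcription factors followed several courses. Cebpd was 4.23-fold above untreated at 2 h and 2.35-fold at 4 h, a difference of -0.85 ± 0.08. Its relative Cebpb held its ratio, at 1.07 and 1.26, then 1.14 and 1.20. Irf1 was at 2.21, -0.18 and -0.07 at 1, 2 and 4 h, and Klf10 at 1.39, -0.20 and -0.22. Egr2 (1.28, 0.05 and -0.46) and Atf3 (1.18, 0.44 and -0.03) were lower again at 4 h, past 0.3. Klf5 was lower by -0.43 and -0.42. Of 24 measured AP-1, EGR, NR4A and KLF factors 0 passed 0.5, 3 were lower and 1 higher past 0.3, and the median was -0.106. Fos and Egr1 were below the untreated level at 2 h (-0.38 and -0.55) and had differences of 0.06 and 0.14. The interferon regulatory factor Irf5 had ratios of 0.60 at 2 h and 0.09 at 4 h.

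Some inhibitors of other pathways passed and others did not. Rnd1, a small GTP-binding protein, was at 1.48 on both arrays at 2 h and at 0.47 and 0.38 at 4 h. With -1.05 ± 0.05 it was, besides Nfkbie, the other gene to pass 2-fold. Cish, a SOCS-family inhibitor of STAT signalling, went from 1.00 and 1.24 to 0.10 and 0.22, close to the untreated level. Socs2 was lower past 0.3 (-0.36 and -0.33) and Socs3 was not (-0.18 and -0.34), so 1 of 11 members of that list passed 0.5. Gadd45b, a stress-response gene, went from 0.96 and 1.01 to 0.35 and 0.27. Errfi1 (MIG6), an inhibitor of the EGF receptor, had a difference of -0.47 ± 0.02, and Rgs16, an inhibitor of G-protein signalling, of -0.44 ± 0.06. Dusp1, the MAP kinase phosphatase, was higher (0.43 and 0.45). Of 17 measured MAP kinase and receptor kinase feedback genes 0 passed 0.5, 2 were lower and 1 higher past 0.3, and the median was 0.005.

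The remaining lower genes belong to no single list. Ch25h, which makes 25-hydroxycholesterol, went from 1.62 and 2.03 at 2 h to 0.88 and 1.20 at 4 h. Has1, a hyaluronan synthase, went from 0.59 and 1.02 to 0.02 and 0.26, and Has2 was also lower (-0.29 and -0.34) without passing 0.3 in both orientations. Noct (nocturnin) was at -0.72 to 2 decimals with orientations of -0.71 and -0.72. The endosomal protein Plekhf1 was at -0.80 ± 0.05 and the SNARE protein Stx11 at -0.68 ± 0.02. Abtb2 (-0.62), the ubiquitin ligase Trim47 (-0.61), the ADP-ribosyltransferase Parp14 (-0.54) and Ifrd1 (-0.53) complete the 25. Parp14 was the only one of them that was not above the untreated level at 1 h (-0.01).

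The 2 genes higher past 0.5 reached 4 h from opposite sides of the untreated level. Id4, which binds and blocks helix-loop-helix transcription factors, was below untreated at every time. It stood at -1.09 and -1.10 at 1 h, at -0.93 and -0.96 at 2 h and at -0.30 and -0.21 at 4 h. From 2 h to 4 h it therefore moved by 0.69 ± 0.06 towards the untreated level. Vegfc, the lymphatic growth factor, was above untreated and went from 0.25 and 0.26 at 1 h to 0.81 and 0.84 at 2 h and to 1.33 and 1.38 at 4 h. The difference was 0.53 ± 0.01. Of the other members of the VEGF family, Vegfa had differences of -0.17 and -0.24, Pgf of -0.36 and -0.34, and Vegfb of -0.12 and -0.05.

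Relatives of Id4 moved in the same direction by less. Id2 went from -0.51 and -0.54 to -0.06 and -0.11, and Id1 from -0.17 and -0.14 to 0.22 and 0.33. Both passed 0.3, and Id3 (0.21 and 0.34) did not. In Id1 the untreated channel was lower on the 4 h arrays, by -0.43 and -0.48, while the treated channel was at -0.04 and -0.02. In Id2 the untreated channel was at -0.14 and -0.23 and the treated one at 0.31 and 0.20. The part of the untreated channel in these ratios was not tested. In the list of 18 Id, Hes, Hey and mesenchymal factors, 3 were higher past 0.3 and 0 lower, with a median of 0.02. Twist2, which is 2.58-fold above untreated at 2 h, was at -0.01, and Sox9 (-0.31 and -0.26) and Twist1 (-0.15 and -0.29) were below 0.

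Of the 37 genes higher past 0.3, 15 were below the untreated level in both orientations at 2 h and 5 were still below it at 4 h. Irs1, the adaptor of the insulin receptor, was at -0.67 and -1.22 at 2 h and at -0.23 and -0.80 at 4 h. Its orientations disagree in level but not in the difference (0.44 and 0.42). Dusp1 went from -0.42 and -0.65 to 0.01 and -0.21. Nr4a1, an immediate early nuclear receptor, was at 1.64 at 1 h, -0.90 at 2 h and -0.53 at 4 h. The kinase Sgk1 and the cell-cycle regulator Rgcc showed the same direction, with differences of 0.36 each. Zfp503, which like Id4 was at least 2-fold below untreated at 1 h, had a difference of 0.22 ± 0.01 and did not pass.

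Of the 37, 21 were above the untreated level in both orientations at 2 h and 1 was on neither side. Serpina3g, a protease inhibitor, had log2 ratios of 1.76 and 2.04 at 2 h and of 2.63 and 2.47 at 4 h, or 3.72-fold and 5.87-fold. The genes of its cluster are near-identical, and cross-hybridisation between them was not tested. Serpinb2 (PAI-2), an inhibitor of plasminogen activators, went from 0.56 and 0.38 to 1.03 and 0.99. Among the matrix metalloproteinases Mmp3 (stromelysin-1) went from 0.52 and 0.30 to 0.98 and 0.85. Mmp10 went from 0.43 and 0.12 to 0.76 and 0.69, and Mmp9 from 0.61 and 0.44 to 1.01 and 0.76. In each of these 3 genes both 4 h values exceeded both 2 h values, which the choice by the difference in part sets. They are 3 of 12 measured family members. Mmp13 (0.30 and 0.14) did not pass, and Mmp2 and Mmp14 had differences of 0.03 and -0.09. No member of the family was lower past 0.3, and the list median was 0.036.

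Saa3, an acute-phase protein, was higher by 0.45 and 0.52, but its untreated RNA was well above background on 0 of the 6 arrays, so its ratio is against background. Others higher past 0.3 were Dcn, the proteoglycan decorin (0.39 and 0.33), and Plscr1, a phospholipid scramblase (0.38 and 0.33). The list also holds the redox enzyme Glrx (0.41 and 0.57), the oxysterol hydroxylase Cyp7b1 (0.53 and 0.40), Ttc39c (0.47 and 0.49) and Prnd (0.37 and 0.43). H2-T10, a non-classical MHC class I gene, was higher by 0.56 and 0.45, while the classical genes H2-K1 and H2-D1 had differences of -0.02 and -0.06. Its close relative H2-T22 was at 0.48 and 0.21, and probes of such similar genes may not tell them apart. Of the 37, 3 were at least 2-fold above untreated at 4 h in each orientation. Genes named here that pass only 0.3, and family members given beside them that pass neither rule, were picked after their values had been seen.

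**Figure D2:**
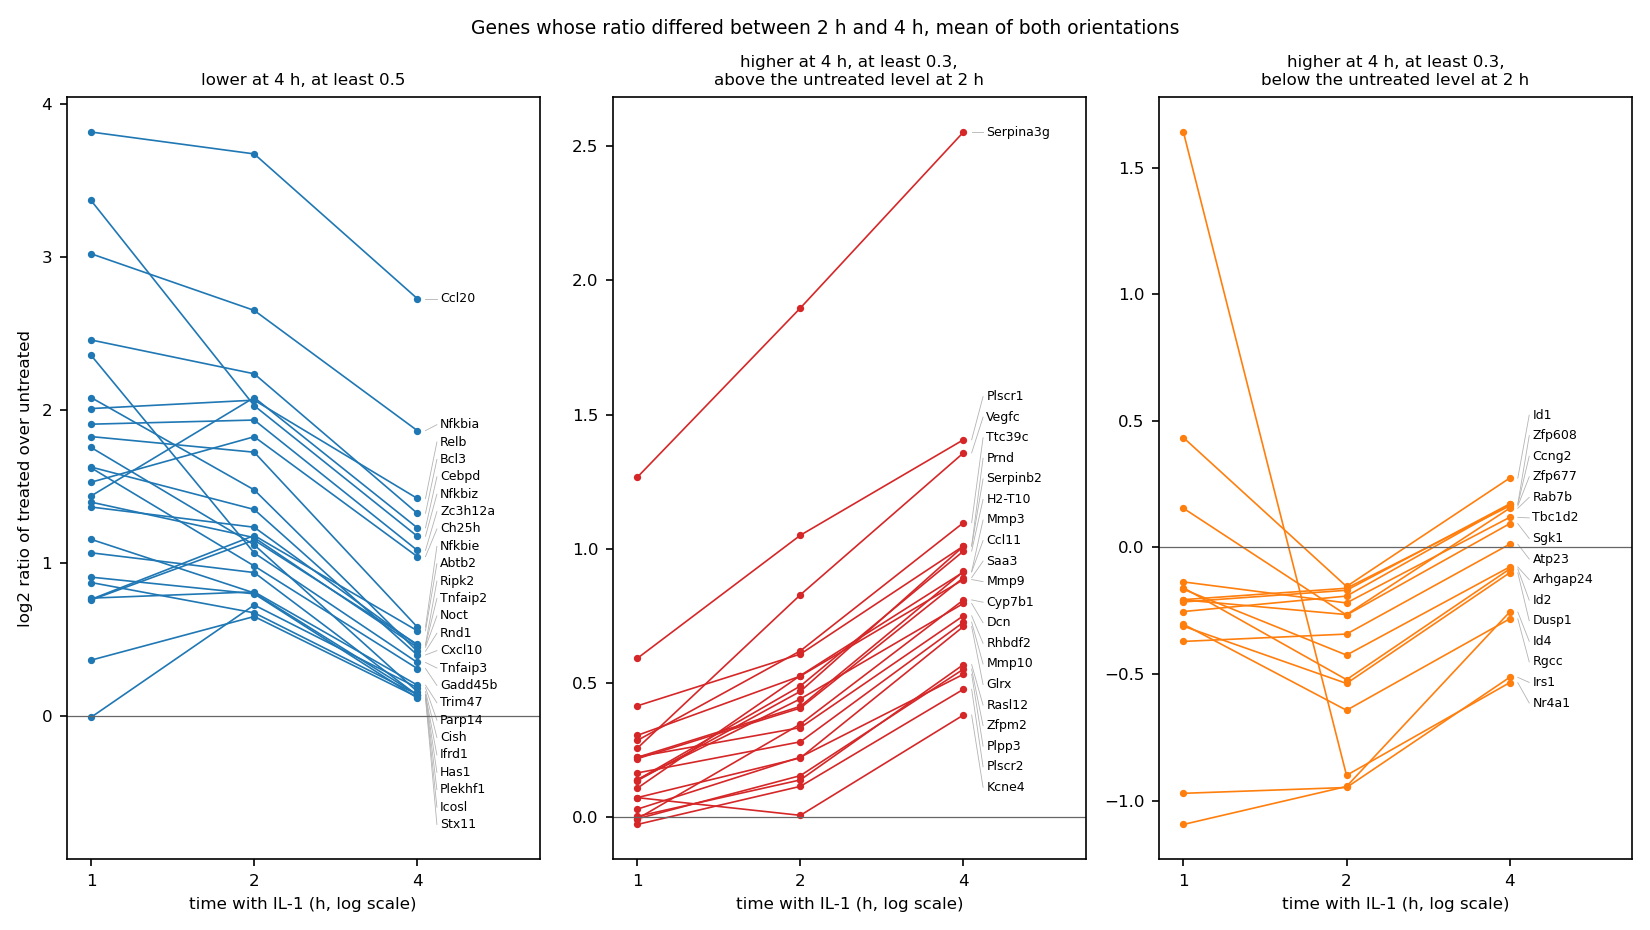
Log2 ratio of treated over untreated RNA (mean of both orientations) at 1, 2 and 4 h, the time axis being on a log scale. The left panel shows the 25 genes lower at 4 h than at 2 h by at least 0.5, all above 0 at 2 h and 4 h; the other panels show genes higher by at least 0.3 that were above or below the untreated level at 2 h.

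Genes were also chosen by the mean of their 2 h and 4 h ratios, which uses the same arrays, so their counts are a description. This mean admits genes 2-fold above untreated at 1 time only, such as Nfkbie at 2 h and Vegfc at 4 h. The mean of the 2 h and 4 h ratios was at least 1 in each orientation for 33 genes. Of these, 9 were lower past 0.5 and 1, Vegfc, was higher, against 0.117% and 0.0094% over all genes. Past 0.3, 15 were lower and 3 higher, against 0.352% and 0.174%. In 19 the difference was below 0 in both orientations, in 7 above 0 in both, and the median was -0.226. Over all 21278 genes these values were 6162, 6010 and -0.001. The group thus divided into genes that were lower, such as Nfkbie, Bcl3 and Cebpd, genes at the same ratio, such as Ccl7, Cebpb, Nfkb2 and Twist2, and a few higher genes. The last were Vegfc, Serpina3g and Plscr1 past 0.3. Angptl4, an inhibitor of lipoprotein lipase, was lower past 0.3 (-0.43 ± 0.02) but was still 3.70-fold above untreated.

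**Figure D3:**
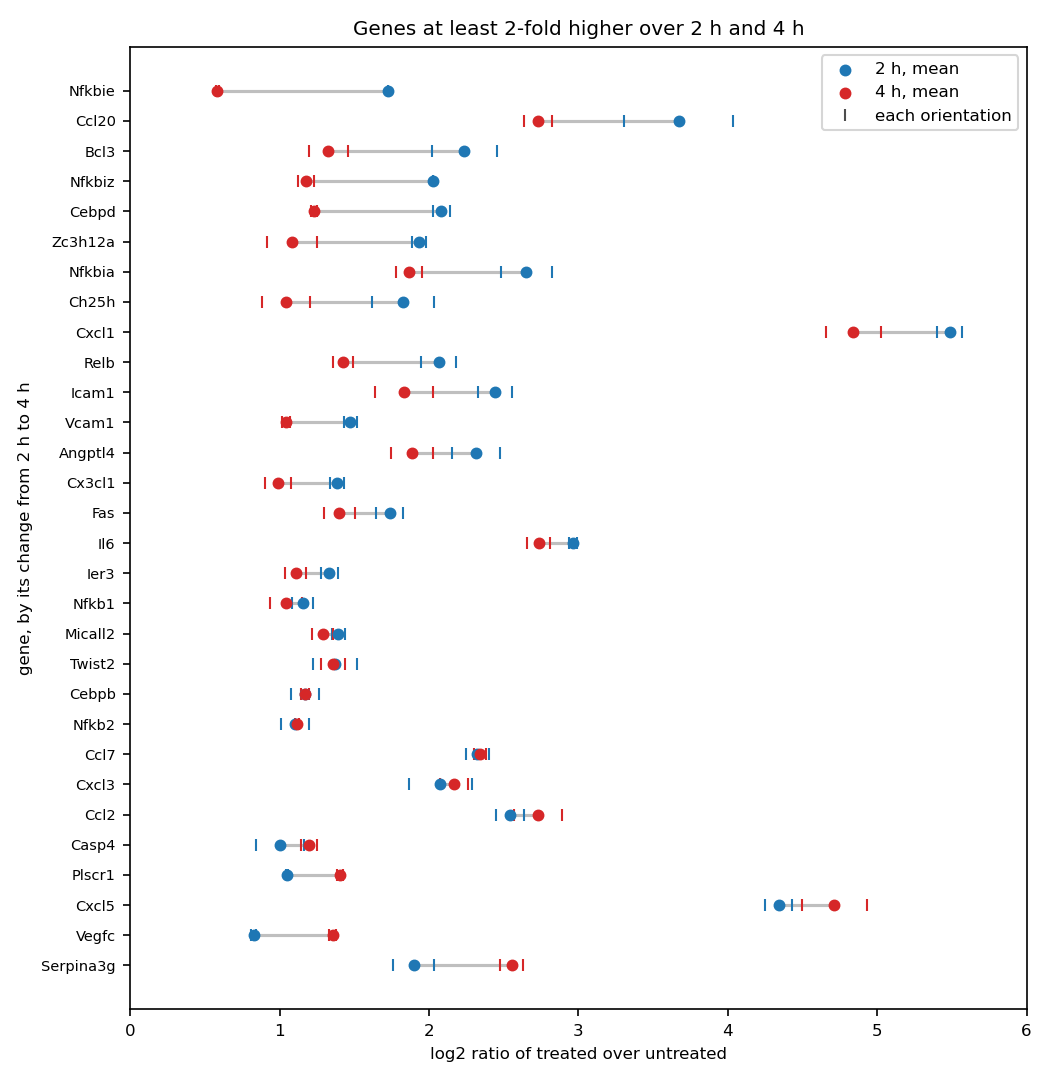
Log2 ratio (x axis) at 2 h (blue) and 4 h (red) of the 30 genes with a symbol among the 33 whose mean of the 2 h and 4 h ratios was at least 1 in each orientation; ticks are the orientations. Nfkbie stands at the top with the largest decrease and Serpina3g at the bottom with the largest increase.

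Another choice used neither the 2 h nor the 4 h arrays. At 1 h, 47 genes were at least 2-fold above untreated in each orientation. From 2 h to 4 h, 16 of them were lower and 0 higher past 0.5, and 30 were lower and 2 higher past 0.3. Their median difference was -0.437. Over all genes these shares are 0.117%, 0.0094%, 0.352% and 0.174%. In the step before, from 1 h to 2 h, 32 genes were lower (0.15%) and 8 higher (0.0376%) past 0.5. That step shares the 2 h arrays with the later one, so the 2 are set side by side and not correlated. Nfkbiz had already been lower by -1.34 from 1 h to 2 h, Tnfaip3 by -1.29, Rnd1 by -0.60, Cish by -0.64 and Gadd45b by -0.64. Nfkbie (-0.10), Ccl20 (-0.14), Plekhf1 (-0.13) and Tnfaip2 (-0.13) had been nearly level. Cebpd (0.64) and Parp14 (0.73) had been higher at 2 h than at 1 h. Of the 25 lower genes, 16 already had a lower ratio at 2 h than at 1 h on both arrays, and 8 had a higher one.

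Most gene lists had medians near that of all genes. Of 38 lists of pathways and families, 15 held a gene past 0.5 and 12 held none past 0.3. Apart from the NF-kB inhibitors, list medians lay between -0.106 and 0.063. No gene past 0.3 was found among 19 collagens, 25 cyclins and replication genes, 25 WNT genes, 16 clock genes, 13 prostaglandin genes, 17 complement genes or 15 heat-shock and unfolded-protein genes. Over all genes 0.352% were lower and 0.174% higher past 0.3, so 0 in lists of this size is near those shares. Ptgs2 (COX-2) was at 0.66 and 0.44 at 2 h and 4 h. Among 28 interferon-stimulated genes Parp14 was lower past 0.5, Irgm1 lower and Plscr1 higher past 0.3, and Ifit1, Isg15 and Mx1 were within 0.06 of 0.

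**Figure D4:**
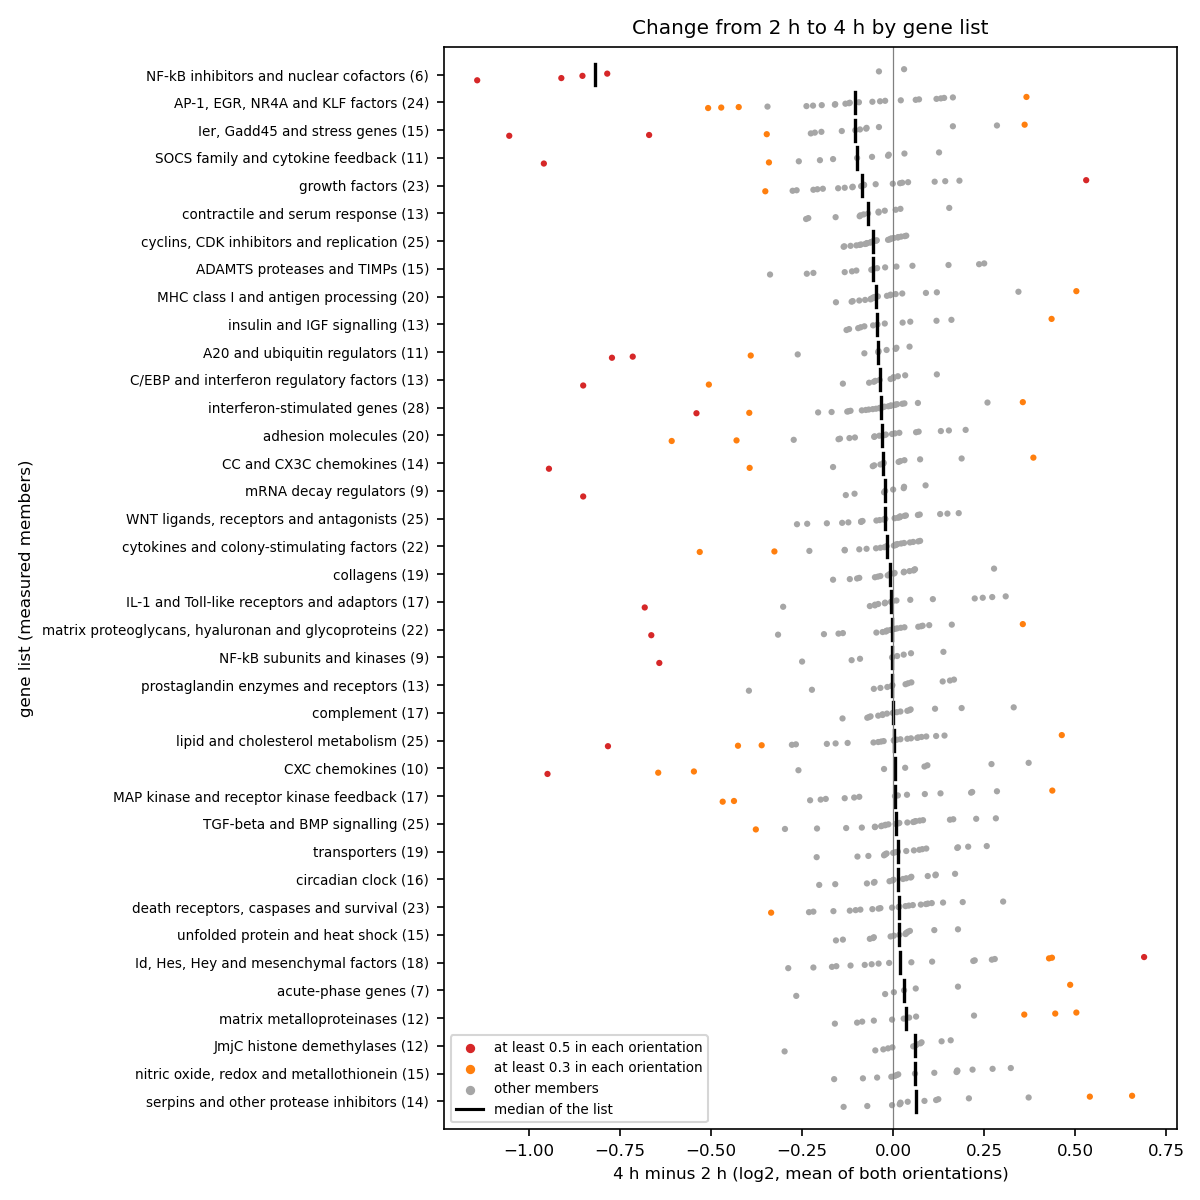
Difference of the log2 ratio between 4 h and 2 h (x axis, mean of both orientations) of each measured member of 38 gene lists, with the list median as a bar. The median of the NF-kB inhibitors lies at -0.819 and the other medians between -0.106 and 0.063.

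The label of the cells was checked on marker genes. The 11 fibroblast markers had a median log2 signal of 13.4, against 7.27 over all genes and 6.45 to 9.24 for 8 marker lists of other skin and blood cell types. Levels of different probes are not comparable, and 4 of the 11 were saturated on some array, so this says only that fibroblast markers were bright. Among 36 measured markers of other types 0 passed 0.3, near the shares over all genes of 0.352% lower and 0.174% higher. Of 6 smooth muscle and pericyte markers 5 were below 0 in both orientations, with a median of -0.113. Of the fibroblast markers Dcn was higher, as given above, and Col1a1 had opposite signs in the orientations (0.14 and -0.34). In bulk RNA, a change in the number of responding cells cannot be told apart from a change per cell.

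The 2 channels were also read separately, because untreated RNA is on every array. The untreated channel was at least 0.5 lower on the 4 h than on the 2 h arrays for 320 genes (1.5%) and higher for 1 (0.0047%). For 286 of the 320 the treated channel was lower too, and in this set the median log2 signal was 8.70 to 8.81 on the 2 h arrays in both channels, against 7.73 to 7.93 on the 1 h and 4 h arrays. The 2 h arrays therefore stood apart for these genes, of which 60.3% had no RefSeq name, against 21.6% of all genes. Their ratios did not follow: the median difference was -0.004 and the range -0.31 to 0.26. Past 0.3 were 0 of the 320, near the shares over all genes of 0.352% lower and 0.174% higher. Nfkb1 is one of the 320 genes, with -0.83 in the treated channel and -0.76 and -0.68 in the untreated one.

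The genes that passed in the ratio were read in the same way. Of the 27 genes past 0.5, 0 had an untreated channel past 0.5, near the shares over all genes of 1.5% lower and 0.0047% higher. In 24 of the 27 that channel was within 0.3 of level in both orientations, a count not made over all genes. All 25 lower genes were lower by at least 0.3 in the treated channel in both orientations, 21 of them by at least 0.5. The treated change less the untreated one is the difference of the ratio, so these counts are in part set by the choice. All 25 were well above background in the treated channel at both times. For Nfkbie the treated channel was lower by -1.37 and -1.59 and the untreated one by -0.24 and -0.43. For Rnd1 these values were -0.99 and -0.96 against 0.01 and 0.14, and for Id4 they were 0.83 and 0.80 against 0.20 and 0.05. Gadd45b (-0.33 and -0.30) and Zc3h12a (-0.40 and -0.09) also had a lower untreated channel. The part of this channel in their ratios was not tested. Each array is on a slide of its own, so slide and time cannot be told apart.

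**Figure D5:**
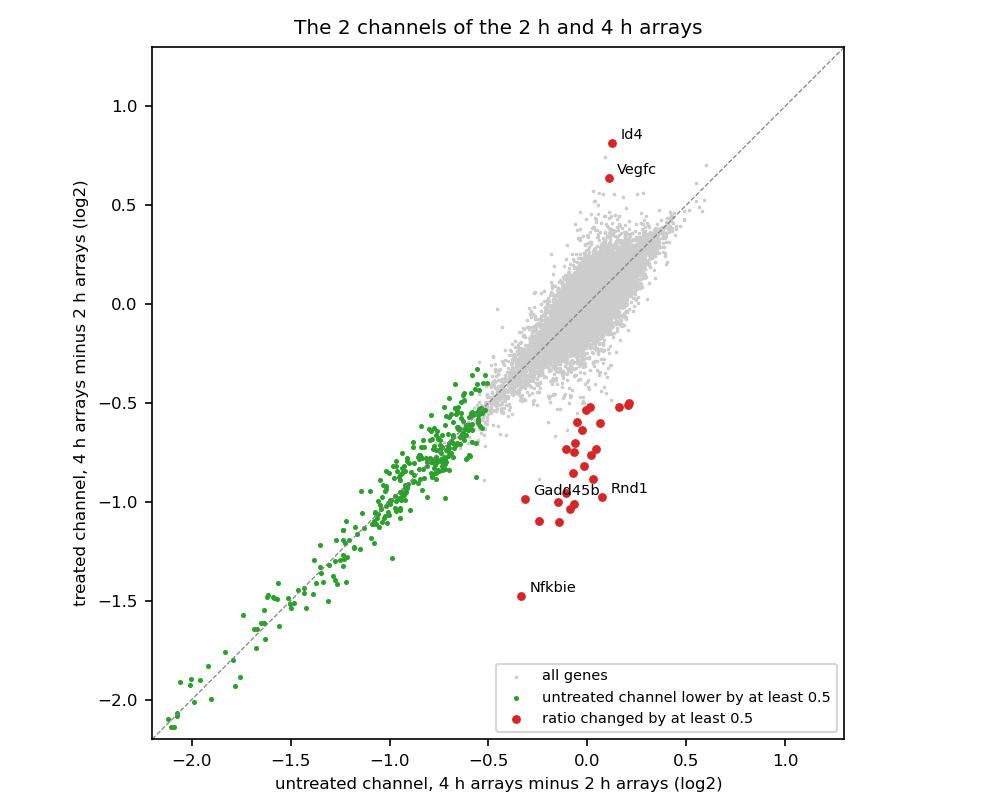
Change of the log2 signal from the 2 h to the 4 h arrays in the untreated channel (x axis) and in the treated channel (y axis), mean of both orientations; the dashed line marks equal change. The 320 genes lower in the untreated channel lie along the line. The 27 genes whose ratio changed lie off it, since the distance from the line is the difference they were chosen by.

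Where a gene had a further probe, the probes did not always behave alike. Of the genes past 0.5, 6 had 7 other probes, of which 3 had the same sign and 2 passed 0.3. These were the second probes of Id4 (0.39 and 0.62) and Gadd45b (-0.45 on both). The dimmer second probes of Abtb2 (0.01), Parp14 (0.09) and Icosl (0.12) were near 0. Rnd1, among the genes with the largest differences, rests on its brightest probe: its dimmer probes had differences of 0.02 and -0.03, with ratios of 0.11 and 0.17 at 2 h. Of the genes past 0.3, 38 had 47 other probes, of which 31 had the same sign and 7 passed 0.3. The second probe of Id1 was at 0.33 and 0.54, while those of Irs1 (0.04), Sgk1 (-0.01), Klf5 (0.09), Vcam1 (0.10), Birc3 (0.04) and Ttc39c (-0.02 and -0.10) were near 0.

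Promoter motifs were compared with all measured genes that have a window. The NF-kB motif was in 5 of 19 windows of genes lower past 0.5 (26.3%), namely those of Nfkbie, Bcl3, Tnfaip3, Ccl20 and Cxcl10. Past 0.3 it was in 10 of 50 (20.0%), in 1 of 23 windows of higher genes (4.3%), and in 869 of 13264 over all genes (6.6%). The C/EBP motif was in 6 of 23 windows of higher genes (26.1%), 5 of 50 of lower genes (10.0%) and 9.0% of all. The CRE was in 2 of 50 (4.0%) and 1 of 23 (4.3%), against 2.8%, and in 2 of 19 lower past 0.5 (10.5%). AP-1 was in 15.8% of windows lower past 0.5 and 17.4% of those higher past 0.3, against 6.3% of all. For the same sets ISRE was in 15.8% and 13.0%, against 7.5%. GAS was in 5.3% and 17.4%, against 7.4%, and the E-box in 10.5% and 17.4%, against 9.1%. Shares above those of all genes were thus not confined to NF-kB and C/EBP. These shares rest on few windows and are a description only.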

How the data were processed

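Total RNA was labelled in both dyes for Agilent arrays, per the labels' protocols. The deposited intensity columns hold spot and background brightness read with Feature Extraction 7.5.1, per the file headers. Intensities were corrected with normexp (offset 50), then loess-normalized within arrays, control spots having weight 0 (limma 3.58.1, R 4.3.3). Channel values were scaled with Aquantile. Control spots (2256 of 43790) and outlier flags were left out. A probe was kept if all arrays of some condition showed it well above background in that RNA's channel. This left 30640 of 41174 probes, less 57 without a value on some array. Of 6688 genes with several probes the brightest was used. Probes were named through RefSeq by accession (22072), symbol (6280) or synonym (4226), and 8596 kept the file's name. No genome build was used for the probes.

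The authors' deposited value table holds log2 ratios without centring (column medians -0.0309 and 0.0311 for 2 h, -0.0325 and 0.0283 for 4 h). Within 0.001, 100% of its spots equal the scanner ratio of the opposite dye orientation at that time. Directions here follow the labelled dyes of the scanner files. By these directions Cxcl1 was 44.8-fold and Nfkbia 6.28-fold above untreated at 2 h. If the files, not the columns, were exchanged, every sign turns and these genes would be below untreated by as much. Whether the files were exchanged was not tested. Nothing states separate cultures, or whether the untreated RNA is 1 extract.

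The named genes were the 15 largest in each direction past 0.5, every gene with a mean 2 h and 4 h ratio of at least 1 that passed with the 10 highest, and up to 6 passing members of each list. Where under 3 members passed, up to 4 with the largest ratios were added. Other genes were chosen after their values were seen. Members and lists were chosen with earlier results of these data known. The scripts were tested on simulated data. Alternatives covered background correction, scaling, probe filters, probe averaging, the value table, single channels and single orientations. The number of arrays limits the precision.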

Additional observations from a re-analysis of the deposited data

Results flagged for a closer look

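For 16 genes past 0.3 the ratio lay on opposite sides of the untreated level at 2 h and 4 h, in both dye orientations. With 1 sample per time the difference was not tested, and some crossings lie within the technical error: Egr2 was at 0.09 and 0.01 at 2 h, and at 4 h Atf3 was at -0.05 and -0.01 and Klf5 at -0.06 and -0.01. Of these, 10 were above untreated at 2 h and below it at 4 h. They include the early transcription factors Egr2, with a log2 difference of -0.51, and Atf3, with -0.47. The factors Nfatc1 (-0.50), Glis2 (-0.48), Klf5 (-0.42) and Foxs1 (-0.42) showed the same course. So did Fst, which encodes the activin antagonist follistatin (-0.47), Chac1, a glutathione-degrading enzyme (-0.44), the interferon-inducible GTPase Irgm1 (-0.40) and Socs2 (-0.34). The other 6 were below untreated at 2 h and above it at 4 h. They were Id1 (0.43), Rab7b (0.42), the kinase Sgk1 (0.36), Zfp608 (0.34), Tbc1d2 (0.34) and Zfp677 (0.33). In Id1 the untreated channel was lower on the 4 h arrays, by -0.43 and -0.48, and its part in the crossing was not tested.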

How the results depend on the processing

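No paired analysis was possible because the result comes from no test: each time is 1 sample, and differences were already taken within a dye orientation. Against 2 higher and 25 lower genes (0 and 2 past 2-fold; 9 lower and 1 higher among induced genes), the rule of 0.3, added after seeing the data, gave 37 and 75. The scanner's processed signals and the authors' value table each gave 104 higher and 138 lower genes, 3 and 11 past 2-fold, and 16 lower and 3 higher induced genes. Of those 104 and 138, 23 and 48 were well above background in both channels on all 4 arrays. The treated channel alone gave 4 higher, 345 lower and 87 2-fold lower genes, the 2 h arrays standing apart. An offset of 16 gave 8 higher genes, median centring 5 higher and 0 2-fold lower, no background correction 1 2-fold lower, averaged probes 1 2-fold lower, and a rule on the mean of both orientations 6 higher and 2 higher induced genes. Leaving out 1 orientation gave 8 to 13 higher, 33 to 39 lower, 3 to 6 2-fold lower, 9 to 11 lower induced and 1 to 2 higher induced genes, since fewer values must pass. Otherwise the cause was not tested. The 27 genes past 0.5 kept their direction under each alternative run that gave them a value. They were chosen by at least 0.5 in each orientation, so leaving out 1 orientation could not turn a sign. The other settings reprocess the same arrays, so the kept directions are in part set by the choice. The value table was read by its own columns without a change of sign. Each column equals the treated over untreated ratio of the other dye orientation at that time, so orientations change places and signs do not turn. Of 83 genes run singly, 11 changed sign under some alternative, none of them past 0.5. Of their 908 values, 233 moved beyond the spread of the orientations. The 83 are the genes past 0.5, the induced genes and the genes higher past 0.3. Other genes lower past 0.3, such as Irf5, Egr2, Atf3 and Klf5, were not run singly. Of 47 list medians 28 changed sign, and 180 of 517 values moved, so most list medians have no direction. Signal over background limits dim genes.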

Other observations

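Some genes of cholesterol synthesis, picked after their values were seen, had lower ratios at 4 h than at 2 h. Hmgcs1, which makes HMG-CoA, went from a log2 ratio of -0.13 to -0.49, with differences of -0.34 and -0.38 in the orientations. Idi1 went from -0.23 to -0.41 and Sqle from -0.07 to -0.22. Of these 3 genes Hmgcs1 passed 0.3. In the whole list of 25 lipid and cholesterol genes the median difference was 0.002, with 3 lower and 1 higher past 0.3.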
